A study of Mus musculus with 12 samples.

Results

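Mouse Hox genes were followed on 12 one-colour Agilent arrays that compared kidney organoids with embryonic kidney. The genes are those of clusters A to D, of which 38 (Hoxa2 to Hoxa13, Hoxb1 to Hoxb9 and Hoxb13, Hoxc4 to Hoxc13, and Hoxd1 to Hoxd13) are covered here, out of 34650 genes named on the arrays. Each was read through the probe that carries its name, and 5 genes with more than 1 probe were read through the brighter one on average. All 38 had a probe. Cluster A lies on chromosome 6 (10 genes), B on 11 (10 genes), C on 15 (9 genes) and D on 2 (9 genes).

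Organoids were made from 3 parts: nephron progenitors and ureteric bud, both grown from mouse embryonic stem cells, and stromal progenitors taken from E11.5 kidney. Their genotype is given as ICR wild type together with embryonic stem cells on a B6 and 129SV background. They were measured after 7 days of culture (day 7, n = 3) and directly after they were put together (day 0, n = 3). One further array held E11.5 kidney cultured for 7 days, and 5 held fresh kidney without ureter, at E11.5 and E13.5, at E15.5 and E17.5, and at birth (P0), all from ICR wild type mice. Cultures stood on transwells with Matrigel in medium with serum. The stroma of the organoids is therefore embryonic tissue, and the nephron progenitors and ureteric bud come from stem cells. The study set out to find genes that depend on stage and to place organoids and cultured kidney among the stages. The kidney groups have 1 array each. The sources used here do not say that the organoid replicates were separate cultures, so the p-values measure only the spread between these arrays.

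Hox genes encode homeodomain transcription factors that give embryonic cells their position along the body axis. Within each cluster they lie in the order of their paralogue numbers, from low numbers used towards the head to high numbers used towards the tail, and genes with the same number in different clusters are close copies. In mice, paralogue group 11 acts redundantly in the first steps of kidney formation, where it drives Six2 and Gdnf in the nephron-forming mesenchyme together with Eya1, and group 10 acts in kidney stroma. Group 13 is known from the limb tip, the hindgut and the urogenital sinus rather than from the kidney itself.

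Levels are given as normalized log2 signal, that is the log2 of the processed signal minus the 75th percentile of the same array, so 0 is the signal of a probe at that percentile. Probes differ in how brightly they bind, so levels are compared between arrays for one gene and never between genes. Day 0 organoids gave the dimmest arrays, with a 75th percentile of 126 to 138 against 201 to 287 elsewhere, and saturation was not seen. There were 2 slides, one with every kidney sample and replicates 1 and 2 of day 0, the other with replicate 3 of day 0 and all of day 7. Organoids differed between days in markers of several cell types. A list's level is the log2 of its members' summed linear signals, called the log2 summed signal, so its brightest genes weigh most. For 6 neuron and neural crest markers it was -0.09 to 0.16 in day 7 organoids and 3.81 to 4.05 in day 0 organoids. Of these markers, 4 to 5 were well above background in day 7 organoids and 5 in day 0 organoids. For 5 stromal progenitor markers the level was 4.06 to 4.28 in day 7 organoids and 5.93 to 6.20 in day 0 organoids. For 5 markers of differentiated stroma and smooth muscle it was 8.23 to 8.40 in day 7 organoids and 3.87 to 4.19 in day 0 organoids. All 4 early nephron markers rose, with a sum of 5.43 to 5.60 in day 7 organoids and 1.86 to 2.20 in day 0 organoids, and of 5 nephron progenitor markers 2 rose and 2 fell. Of the other lists, 2 of 3 tested podocyte markers and 4 of 4 for proximal tubule rose, and of 5 endothelial ones 4 rose and 1 fell. All 4 erythroid and 3 of 3 tested pluripotency markers fell. For skeletal muscle 3 of 4 fell while Acta1 rose by 2.97, and the sum was 2.37 to 2.89 in day 7 organoids and 1.39 to 1.57 in day 0 organoids. Their part in any Hox result was not tested. All 5 nephron progenitor markers, all 6 markers of ureteric bud and collecting duct and all 5 stromal progenitor markers were well above background on all 12 arrays.

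The probes are 60 bases long, and paralogues share most of the codons of the homeodomain. The probes of Hoxc11 and Hoxd10 lay over codons of its recognition helix, which contacts DNA, and they are shown with those codons in capitals, since they are the stretches where a probe has the least to tell close copies apart. The probes are given 5′ to 3′ on the coding strand, with positions in mm9, the build named by the file headers, at chr15:102787022-102787081 for Hoxc11 and chr2:74532280-74532339 for Hoxd10, both on the plus strand.
Hoxc11: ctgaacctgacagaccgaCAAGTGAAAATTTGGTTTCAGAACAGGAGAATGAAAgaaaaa
Hoxd10: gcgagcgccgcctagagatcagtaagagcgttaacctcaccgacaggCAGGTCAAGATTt
How far signal of one paralogue reaches the probe of another was not tested.

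Of the 38 genes, 33 were well above background on all 12 arrays. Hoxb13 was not well above background on any of them. Hoxb1 was seen only in fresh E11.5 kidney, Hoxc12 only in day 0 replicate 3 and Hoxc13 only in day 7 replicate 3. Hoxa13 was well above background on 8 arrays, namely all organoids, fresh E11.5 kidney and cultured kidney, and on none of the later stages. The genes at background are thus all from paralogue groups 1, 12 and 13, while Hoxd1, Hoxd12 and Hoxd13 of the same groups were measured on every array. The map of all arrays shows these patterns by cluster.

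**Figure D1:**
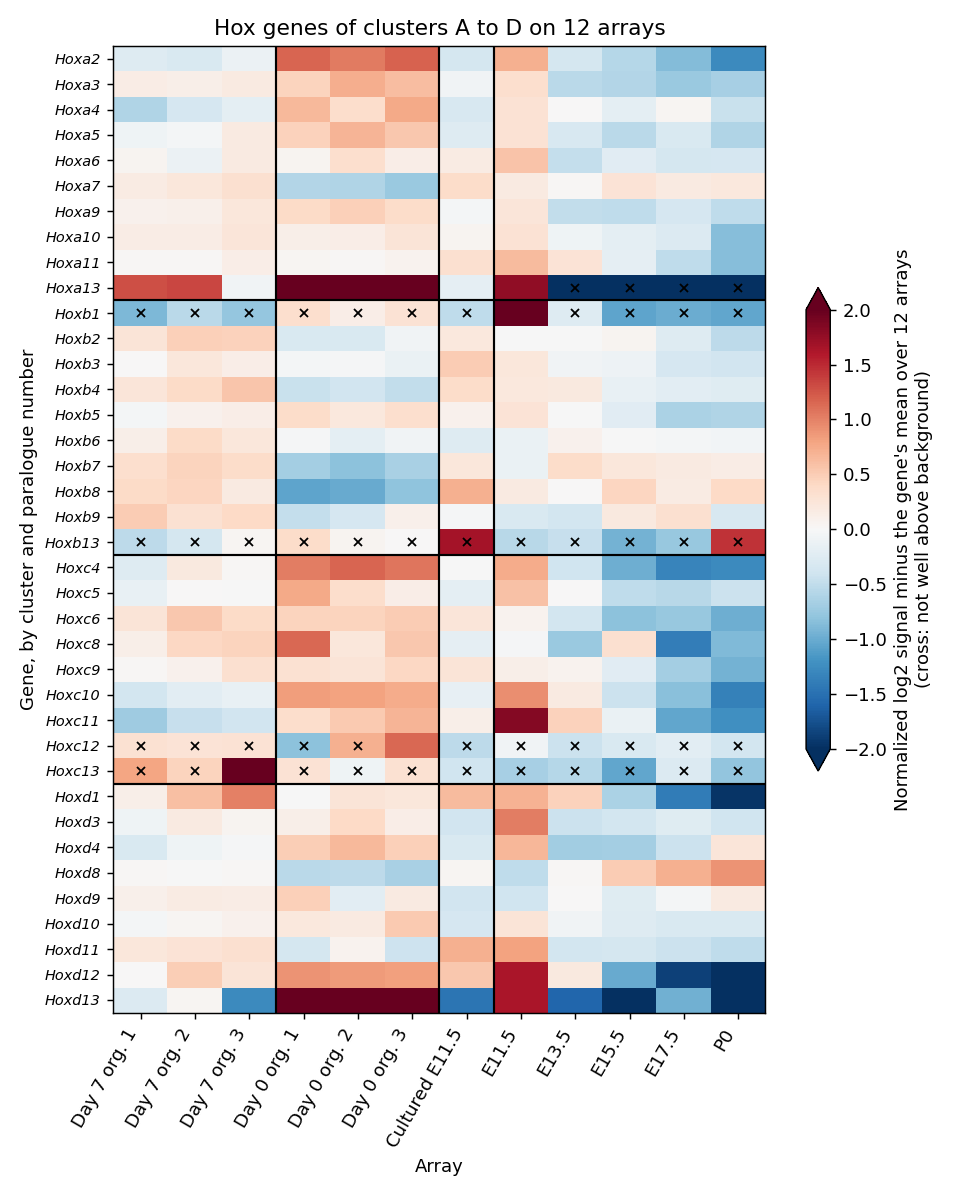
Normalized log2 signal of each Hox gene minus that gene's mean over the 12 arrays, by cluster (rows, A at the top) and array (columns), with colours limited to the range of the scale and a cross where the probe was not well above background. Hoxa13 and Hoxd13 are high in all 3 day 0 organoids, cluster B genes 7 and 8 are low there, and Hoxc10, Hoxc11 and Hoxd12 fade from E11.5 to P0.

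The first comparison asked what 7 days of culture did to the Hox genes of organoids. The most 5′ genes, Hoxd13 and Hoxa13, fell furthest, and genes of cluster B rose. Of 34 members tested, 9 were higher at day 7 (26.5%, against 24.6% of the 21956 genes tested) and 14 were lower (41.2%, against 42% of all genes), while 11 did not pass limma's adjusted p under 0.05. In all, 67.6% of members and 66.6% of all genes were called, so as a set the members were called about as often as other genes. The median change was -0.17 for members and -0.20 for all genes. Day 7 and day 0 values did not overlap for 25 of 34 members (73.5%, against 73.2% of all genes), among them all 23 that were called. In bulk samples such as these, fewer cells of a type and less RNA per cell cannot be told apart. Changes below are log2 differences, day 7 minus day 0, with the standard error of the fit.

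The clusters differed in their counts. In cluster B 6 of 8 tested genes were higher and 1 was lower, with a median change of 0.63. In cluster A 1 was higher and 6 lower of 10 (median -0.36), in cluster C none was higher and 4 lower of 7 (median -0.47), and in cluster D 2 were higher and 3 lower of 9 (median -0.16). Over 18 settings of the analysis, cluster B kept 4 to 7 higher and at most 1 lower, and cluster C kept 0 higher and 3 to 5 lower. By paralogue number, 1 was higher and 2 lower of 6 in groups 1 to 3, 6 higher and 6 lower of 15 in groups 4 to 8, and 2 higher and 6 lower of 13 in groups 9 to 13. These counts describe the lists and were not tested between clusters.

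**Figure D2:**
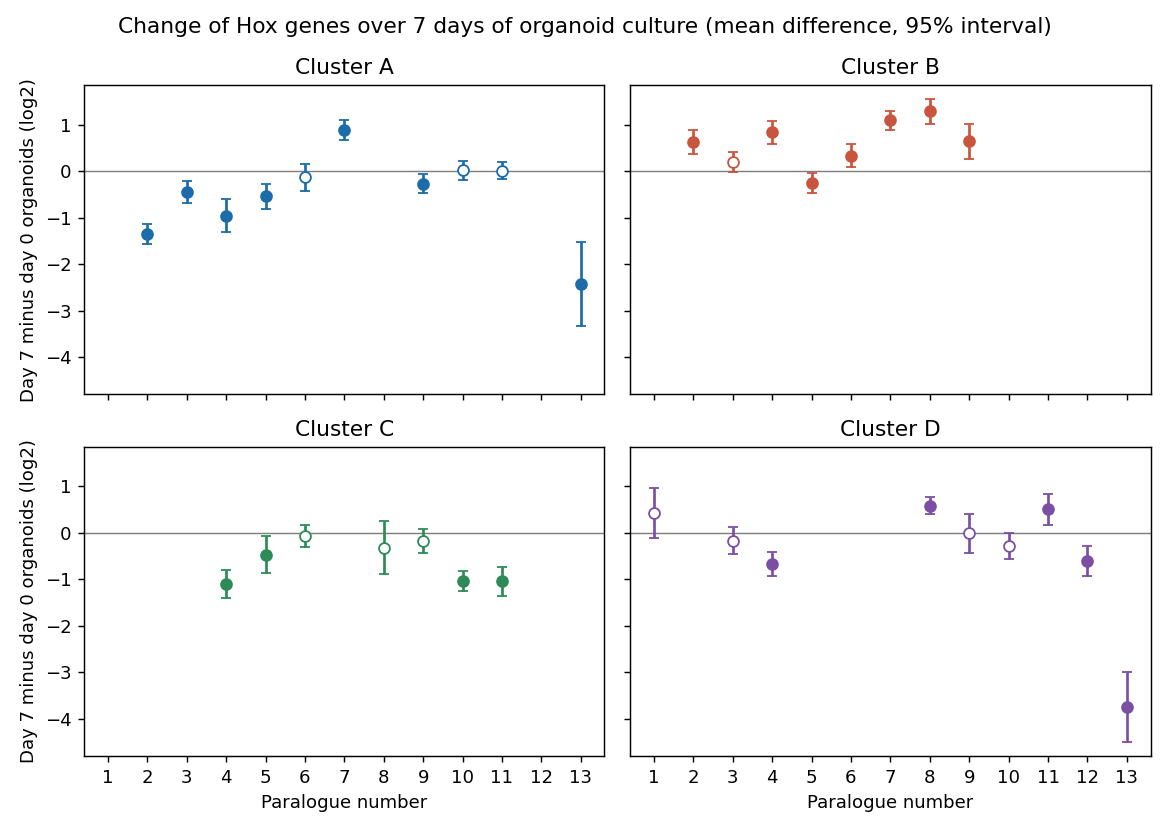
Change of each tested Hox gene over 7 days of organoid culture (log2, day 7 minus day 0, means of 3 arrays each) by cluster and paralogue number, with 95% intervals, filled where the adjusted p was under 0.05. Cluster B sits above 0 except for Hoxb5, and Hoxa13 (-2.43) and Hoxd13 (-3.74) lie far below every other gene.

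Hoxd13, a regulator of digits and of the urogenital outlet, had -1.81, -1.5 and -2.80 in day 7 organoids, against 1.72, 1.70 and 1.68 in day 0 organoids. The day 0 arrays lay within a narrow band, and all day 7 arrays lay far below it, with replicate 3 the lowest. The change was -3.74 ± 0.32, or 13.4-fold lower (adjusted p = 0.000114). Hoxa13, which acts with Hoxd13 in limb and hindgut, had -2.75, -2.71 and -4.11 in day 7 organoids and -0.92, -0.64 and -0.74 in day 0 organoids. It was 5.38-fold lower (-2.43 ± 0.37, adjusted p = 0.00144), again with replicate 3 below the other day 7 arrays. Leaving out day 7 replicate 3 gave -3.36 for Hoxd13 and -1.97 for Hoxa13, both still called. The second Hoxa13 probe, 124 bases away, was well above background on only 4 arrays and was not tested, while its means differed by -1.68.

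Hoxb8 had 3.25, 3.31 and 3.06 in day 7 organoids and 1.83, 1.86 and 2.07 in day 0 organoids, and its paralogue neighbour Hoxb7 had 3.94, 4.04 and 3.96 in day 7 organoids and 2.93, 2.78 and 2.94 in day 0 organoids. Both were higher on every day 7 array than on any day 0 array. Hoxb8 was 2.44-fold higher (1.29 ± 0.11, adjusted p = 0.000122) and Hoxb7 2.14-fold (1.09 ± 0.08, adjusted p = 8.05e-05). Hoxa7, the copy of Hoxb7 in cluster A, had 2.99, 3.05 and 3.16 in day 7 organoids and 2.24, 2.23 and 2.10 in day 0 organoids, and was the only gene of cluster A that rose (0.88 ± 0.09, 1.84-fold, adjusted p = 0.000231). Groups 7 and 8 are used in the trunk, and a Hoxb7 promoter fragment is widely used to drive transgenes in mouse ureteric bud. Markers of ureteric bud and collecting duct moved in the same direction, with 5 of 6 higher and 1 lower. Their log2 summed signal was 3.88 to 4.10 in day 7 organoids against 3.27 to 3.62 in day 0 organoids. Whether these markers have a part in the Hoxb7 and Hoxb8 values was not tested.

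The promoters of Hoxd13 and Hoxa13, which fell furthest, and of Hoxb8 and Hoxa7, the genes with the largest rise among those in the promoter table, are shown with their base composition and a motif. They are the 250 bases before the start in RefSeq for GRCm38.p6, read on the strand of the gene, with TTTATG, a core bound by factors of the Cdx type, or its reverse complement CATAAA in capitals. Positions are chr2:74667975-74668224 for Hoxd13 (plus strand), chr6:52260881-52261130 for Hoxa13 (minus strand), chr11:96281655-96281904 for Hoxb8 (plus strand) and chr6:52218574-52218823 for Hoxa7 (minus strand).
Hoxd13: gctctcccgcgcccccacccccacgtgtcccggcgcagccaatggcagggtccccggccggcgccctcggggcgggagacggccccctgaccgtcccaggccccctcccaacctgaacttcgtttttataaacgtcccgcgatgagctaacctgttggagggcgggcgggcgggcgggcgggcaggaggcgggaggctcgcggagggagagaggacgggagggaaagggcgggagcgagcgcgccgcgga
Hoxa13: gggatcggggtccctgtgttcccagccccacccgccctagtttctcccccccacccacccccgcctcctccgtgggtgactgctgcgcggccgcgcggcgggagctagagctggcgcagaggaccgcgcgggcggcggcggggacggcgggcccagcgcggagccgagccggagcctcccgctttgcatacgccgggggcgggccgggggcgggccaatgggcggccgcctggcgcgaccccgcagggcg
Hoxb8: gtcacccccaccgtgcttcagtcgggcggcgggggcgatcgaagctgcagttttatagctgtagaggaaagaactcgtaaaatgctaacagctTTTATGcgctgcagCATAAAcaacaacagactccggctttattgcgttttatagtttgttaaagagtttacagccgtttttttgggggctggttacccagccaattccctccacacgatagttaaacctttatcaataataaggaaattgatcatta
Hoxa7: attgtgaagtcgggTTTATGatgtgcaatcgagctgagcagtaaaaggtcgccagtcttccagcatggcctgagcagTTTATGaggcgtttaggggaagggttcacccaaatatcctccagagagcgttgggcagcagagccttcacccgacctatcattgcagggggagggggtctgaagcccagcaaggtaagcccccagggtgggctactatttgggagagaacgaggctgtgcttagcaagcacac
The windows of Hoxb8 and Hoxa7 held 2 matches each, and those of Hoxd13 and Hoxa13 held none. Their G and C content was 74.4% for Hoxd13 and 80.0% for Hoxa13, against 44.4% for Hoxb8 and 54.8% for Hoxa7, with a median of 58.6% over 24 promoters of 22 member genes and 52.4% over all 32851 promoters. The other members did not follow this split, since Hoxd4, which fell, held 1 match while Hoxb4 and Hoxd8, which rose, held 0. On both strands the motif was in 5 of the 24 member promoters (20.8%) and in 10.8% of all promoters of that length. A TATA core (TATAAA) was in 16.7% of member promoters and 12.4% of all, and a joint Pbx and Hox core (TGATNNAT) in 16.7% of member promoters and 7.68% of all. Read on the other strand TATAAA is TTTATA, which shares its first 5 letters with TTTATG, so the same bases cannot match both. A match is a description of the sequence, and binding was not measured.

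The other genes of cluster B that rose did so by less. Hoxb4, a gene of the posterior hindbrain and of blood stem cells, had 2.37, 2.5 and 2.68 in day 7 organoids and 1.67, 1.74 and 1.62 in day 0 organoids. Hoxb2, a hindbrain gene, had 3.15, 3.37 and 3.35 in day 7 organoids and 2.59, 2.59 and 2.82 in day 0 organoids. For both genes every day 7 array was above every day 0 array, and the changes were 0.84 ± 0.10 (adjusted p = 0.000546) for Hoxb4 and 0.63 ± 0.11 (adjusted p = 0.00246) for Hoxb2. Hoxb9 had 3.36, 3.15 and 3.24 in day 7 organoids and 2.37, 2.52 and 2.95 in day 0 organoids, with replicate 3 the highest of day 0. Its change was 0.64 ± 0.16 (adjusted p = 0.0119), and 0.30 with slide as a block, where the call was lost (adjusted p = 0.101). Hoxb6 had 2.86, 3.12 and 2.96 in day 7 organoids and 2.72, 2.56 and 2.67 in day 0 organoids (0.33 ± 0.10, adjusted p = 0.0229). Hoxb5 fell, with 1.23, 1.36 and 1.40 in day 7 organoids and 1.64, 1.49 and 1.61 in day 0 organoids (-0.25 ± 0.09, adjusted p = 0.0456). Hoxb3 did not pass (0.19 ± 0.09, adjusted p = 0.106), and its second probe, 1888 bases away, differed by -0.34 (adjusted p = 0.0711).

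In cluster A 5 genes besides Hoxa13 fell. Hoxa2, which patterns hindbrain and neural crest of the branchial arches, had -1.04, -1.09 and -0.90 in day 7 organoids and 0.38, 0.25 and 0.39 in day 0 organoids. It was 2.55-fold lower (-1.35 ± 0.09, adjusted p = 4.61e-05), and no array of one day reached the other day's values. Hoxa4 had -3.13, -2.87 and -2.73 in day 7 organoids and -1.88, -2.17 and -1.78 in day 0 organoids, and Hoxa5, a gene needed in lung, had -0.03, 0.02 and 0.24 in day 7 organoids and 0.51, 0.74 and 0.60 in day 0 organoids. Both sets of day 7 arrays lay below the day 0 arrays (-0.96 ± 0.15, adjusted p = 0.00142 for Hoxa4, and -0.54 ± 0.11, adjusted p = 0.00449 for Hoxa5). Hoxa3, needed for thymus and parathyroid, had 2.11, 2.09 and 2.15 in day 7 organoids and 2.41, 2.70 and 2.59 in day 0 organoids (-0.45 ± 0.10, adjusted p = 0.00636). The second probe named Hoxa3 lies 30063 bases away, between the probes of Hoxa4 and Hoxa5, and carries no accession that gives the Hoxa3 symbol. It was dimmer, with a mean of -3.46 over the 12 arrays against 1.97 for the probe used. That probe differed by 0.34 (adjusted p = 0.257), and the mean of both probes was -0.06 (adjusted p = 0.783). Hoxa9 had -0.57, -0.55 and -0.43 in day 7 organoids and -0.27, -0.18 and -0.30 in day 0 organoids (-0.27 ± 0.08, adjusted p = 0.0267). Its second probe gave -0.25 (adjusted p = 0.0695). Several marker lists fell between the same days. Lower were 5 of 5 tested neuron and neural crest, 4 of 4 erythroid and 3 of 3 tested pluripotency markers. The same held for 4 of 5 stromal progenitor and 3 of 4 skeletal muscle markers, with 1 higher in each list. All 5 markers of differentiated stroma, all 4 of early nephron and all 4 of proximal tubule rose. The part of any of these lists in the cluster A values was not tested.

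Cluster C had no gene that rose. Hoxc4, at its 3′ end, had 1.88, 2.33 and 2.16 in day 7 organoids and 3.17, 3.30 and 3.20 in day 0 organoids, a 2.14-fold fall (-1.10 ± 0.13, adjusted p = 0.000439). Hoxc5 had -1.98, -1.83 and -1.84 in day 7 organoids and -1.06, -1.47 and -1.69 in day 0 organoids, with replicate 1 the highest of day 0 (-0.47 ± 0.17, adjusted p = 0.0409). In cluster D, Hoxd4 fell and Hoxd8 rose. Hoxd4 had 0.72, 0.94 and 1.0 in day 7 organoids and 1.51, 1.67 and 1.5 in day 0 organoids (-0.68 ± 0.11, adjusted p = 0.0016), and Hoxd8 had 2.35, 2.31 and 2.35 in day 7 organoids and 1.78, 1.81 and 1.67 in day 0 organoids (0.59 ± 0.08, adjusted p = 0.000793). Hoxd12, next to Hoxd13 at the 5′ end, had 1.45, 1.93 and 1.70 in day 7 organoids and 2.33, 2.29 and 2.26 in day 0 organoids. Its change was -0.61 ± 0.13 (adjusted p = 0.00628), and -0.57 with slide as a block (adjusted p = 0.0525).

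Paralogue groups 10 and 11, which act in kidney, split by cluster. Hoxa11 had 3.28, 3.28 and 3.39 in day 7 organoids and 3.29, 3.28 and 3.33 in day 0 organoids, and Hoxa10 had 2.35, 2.36 and 2.45 in day 7 organoids and 2.31, 2.34 and 2.46 in day 0 organoids. For both the days overlapped, and the 95% interval of the change was -0.17 to 0.20 for Hoxa11 and -0.18 to 0.22 for Hoxa10. Their copies in cluster C fell, as Hoxc11 had -0.76, -0.51 and -0.43 in day 7 organoids and 0.30, 0.47 and 0.64 in day 0 organoids, and Hoxc10 had 0.82, 0.97 and 1.03 in day 7 organoids and 2.01, 1.97 and 1.92 in day 0 organoids. Each was lower on all day 7 arrays, with changes of -1.04 ± 0.13 for Hoxc11 (adjusted p = 0.000598) and -1.03 ± 0.09 for Hoxc10 (adjusted p = 0.000121). Hoxd10 had 1.31, 1.39 and 1.44 in day 7 organoids and 1.56, 1.53 and 1.88 in day 0 organoids and missed the threshold although the days did not overlap (-0.28 ± 0.12, adjusted p = 0.0695), but it passed with slide as a block (-0.50, adjusted p = 0.0118) and without day 0 replicate 2 (adjusted p = 0.0499).

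Hoxd11 gave opposite answers from its 2 probes. The one used had 2.28, 2.31 and 2.37 in day 7 organoids and 1.70, 2.12 and 1.63 in day 0 organoids, a rise of 0.50 ± 0.14 (adjusted p = 0.0178). The second had 1.28, 1.52 and 1.41 in day 7 organoids and 2.15, 1.72 and 2.20 in day 0 organoids, a change of -0.62 ± 0.15 (adjusted p = 0.00976). The second probe is shown because it ends on the stop codon of Hoxd11 (in capitals) at chr2:74522136-74522195 of mm9 on the plus strand, 2878 bases from the first.
Hoxd11, second probe: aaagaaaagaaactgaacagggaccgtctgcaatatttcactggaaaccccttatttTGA
With the mean of both probes the change was -0.06 (adjusted p = 0.547), so the direction for Hoxd11 depends on the probe, and without it 8 members rose.

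The members that did not pass were Hoxa6, Hoxa10, Hoxa11, Hoxb3, Hoxc6, Hoxc8, Hoxc9, Hoxd1, Hoxd3, Hoxd9 and Hoxd10, with changes between -0.32 for Hoxc8 and 0.42 for Hoxd1. Without day 7 replicate 1 Hoxd1 passed (0.65, adjusted p = 0.0199). Of the 23 members called, 15 were called under all 18 settings of the analysis. The other 8 were Hoxa3, Hoxa9, Hoxb5, Hoxb6, Hoxb9, Hoxc5, Hoxd11 and Hoxd12. Leaving out 1 array ended some of these calls, with adjusted p between 0.0535 and 0.158. Hoxa9 was lost without replicate 1 or 2 of either day, and Hoxb6 without replicate 2 or 3 of day 7 or replicate 2 of day 0. Hoxb5 was lost without any 1 array of day 7 or replicate 1 or 3 of day 0, and Hoxc5 without any 1 array of day 7 or replicate 1 or 2 of day 0. Hoxd11 was lost without day 0 replicate 1 (adjusted p = 0.0576) or day 7 replicate 3 (adjusted p = 0.0581). With slide as a block, which rests on day 0 replicate 3 against the day 7 arrays, 7 members were higher and 11 lower.

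Genes that work with Hox proteins changed too, and each count below stands beside 42% lower and 24.6% higher among all 21956 genes tested. Among 9 cofactors of the TALE class, which bind DNA beside Hox proteins, 6 fell and none rose. Meis2 (-1.82 ± 0.08, adjusted p = 1.1e-05) and Meis1 (-1.80 ± 0.08, adjusted p = 1.17e-05) fell furthest, and Pbx2 fell by 1.39. The list median was -1.19, and under 18 settings 6 to 8 fell and 0 rose. Of 11 upstream regulators 9 were tested, of which 2 rose, namely the retinoic acid receptor Rarg (1.22 ± 0.08, adjusted p = 4.48e-05) and Cdx1 (adjusted p = 0.00748). Cdx1 was not well above background in day 0 organoids, so no size is given for it. The ligand Gdf11, which sets posterior identity of the trunk, fell by 2.03, and Rarb, Bmi1 and Ezh2 fell by 0.48 to 0.70. Cdx2 was not well above background on any array. Among genes that act with or below group 11 in kidney, Gdnf, the signal that draws out the ureteric bud (1.96 ± 0.12, adjusted p = 3.57e-05), Pax2 (1.14 ± 0.22) and Itga8 (0.63 ± 0.08) rose. The stromal factor Foxd1 (-3.33 ± 0.10), Osr1 (-1.20 ± 0.18) and Eya1 (-0.66 ± 0.08) fell, while Six2 differed by 0.13 ± 0.16 (adjusted p = 0.497). Of 22 noncoding transcripts of the clusters 5 had a probe, and the 4 that were tested rose: Gm53 (2.27 ± 0.23), Hoxd3os1 (1.06 ± 0.10), Hoxb5os (1.06 ± 0.09) and Hoxa11os (0.42 ± 0.13). The fifth, Hottip, was at background on all arrays. Of 7 homeobox genes beside the clusters or in the ParaHox group 3 were tested, and Evx2, the neighbour of Hoxd13, fell by 0.66. These lists overlap with the cell markers, since Six2 and Eya1 also mark nephron progenitors and Foxd1 and Rarb also mark stromal progenitors.

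The kidney arrays allow the same genes to be followed when E11.5 kidney itself was cultured for 7 days. Here 1 array stands against 1 array, so there is no test and members are named where they differ by more than 2-fold. Of 35 members measured, 0 were higher and 8 lower in cultured kidney, against 8.41% lower and 11.3% higher among 24148 genes (19.7% in all). Hoxd13 had -2.99 in cultured and 0.09 in fresh E11.5 kidney, which is 8.47-fold lower, and Hoxa13 had -4.22 in cultured and -2.26 in fresh kidney (3.88-fold). Hoxc11 was 3.29-fold lower, Hoxd3 2.66-fold, Hoxc10 2.14-fold, Hoxd12 2.13-fold and Hoxa2 2.1-fold. Hoxb1, the gene that marks rhombomere identity in the hindbrain, was -0.97 in fresh kidney and not well above background in cultured kidney, at least 17.8-fold lower. Bounds of this kind set the brighter signal against the lowest signal called well above background on the dimmer array. With normexp background correction 5 members were past 2-fold lower.

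The organoid and kidney cultures use different arrays, so their changes can be set beside each other. Over the 33 members measured on every array, Pearson's r between the changes was 0.897 and Spearman's rho 0.876, and 25 (75.8%) had the same sign. Without Hoxd13 the values were 0.815 and 0.864 over 32 members. Over 19016 genes measured on every array r was 0.706 and rho 0.543, with 74.5% of the same sign, so the share of equal signs among members was that of genes at large. These are correlations across genes, which are not independent replicates, and they share the 2 kidney arrays and 6 organoid arrays.

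**Figure D3:**
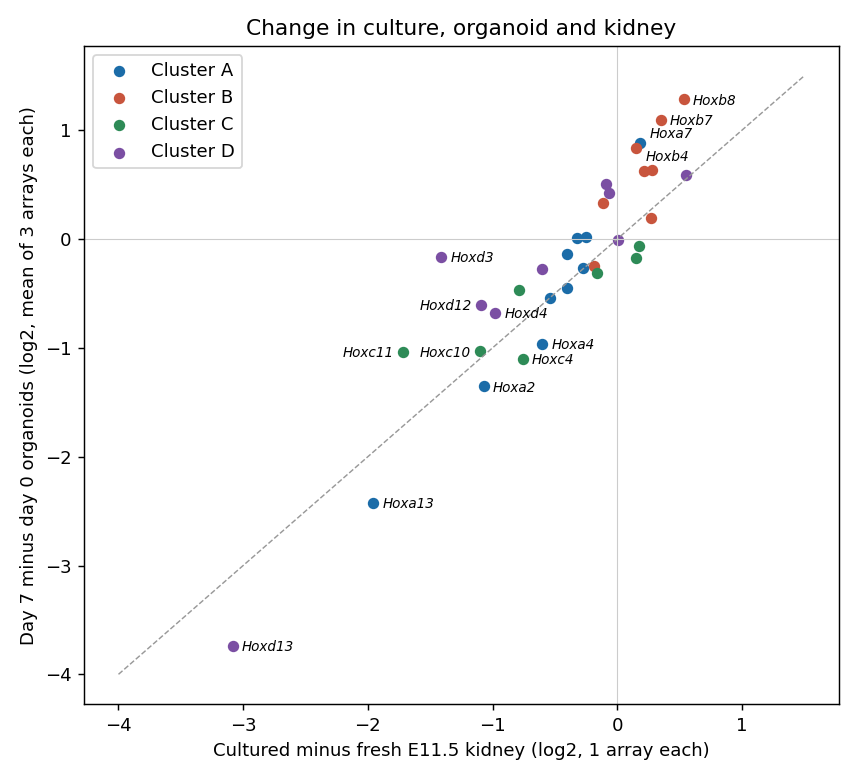
Change in culture of the Hox genes tested in organoids (vertical, day 7 minus day 0, means of 3 arrays each) against cultured minus fresh E11.5 kidney (horizontal, 1 array each), both log2, coloured by cluster, with the line of equal change dashed. Hoxd13 and Hoxa13 lie lowest in both, and Hoxb7 and Hoxb8 lie above the line.

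Day 7 organoids were then set against cultured E11.5 kidney, in a fit in which the lone kidney array is assumed to vary like organoid replicates. All 3 day 7 arrays lay on 1 slide and the cultured kidney array on the other. Within this pair of groups, a difference between slides cannot be told apart from one between organoid and kidney. The calls given here were made without slide in the fit. limma called no member of 34 tested, against 6.34% of 22891 genes (3.25% higher and 3.09% lower). At an unadjusted p under 0.05 there were 4 of 34 members, against 6205 of 22891 genes (27.1%). With normexp correction, and with trend and robust moderation, Hoxb6 was called higher (adjusted p = 0.0311 and 0.0349) and Hoxc11 lower (adjusted p = 0.0269 and 0.0433). The 4 were Hoxb6 (0.49 ± 0.14, adjusted p = 0.0946), Hoxd3 (0.43 ± 0.17, adjusted p = 0.167), Hoxb3 (-0.39 ± 0.13, adjusted p = 0.125) and Hoxc11 (-0.64 ± 0.19, adjusted p = 0.0973). The mean absolute difference over the 33 members was 0.258 to cultured kidney, and for fresh kidney 0.575 at E11.5, 0.377 at E13.5, 0.485 at E15.5, 0.638 at E17.5 and 0.857 at P0. Over all 19016 genes the order was another one, with 0.325 to cultured kidney and 0.643, 0.604, 0.465, 0.470 and 0.548 over the same stages. Day 0 organoids had their smallest distance over the members to fresh E11.5 kidney (0.460), with 0.744 to cultured kidney and 1.25 to P0. Hoxa13 and Hoxd13 differed by 1.03 ± 0.54 (adjusted p = 0.273) and 0.95 ± 0.46 (adjusted p = 0.237). Both were called higher in organoids without day 7 replicate 3, at 1.49 (adjusted p = 0.0204) and 1.33 (adjusted p = 0.0277). A p that misses the threshold does not show that organoid and kidney were alike. The widest interval of a tested member was that of Hoxa13, -0.28 to 2.34. Of the lists, Evx1, which lies beside cluster A, was called higher in day 7 organoids (adjusted p = 0.00956) and was not well above background in cultured kidney. The noncoding Hoxb5os was higher by 0.69 ± 0.13 (adjusted p = 0.0393).

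Day 0 organoids were compared with fresh E11.5 kidney, the stage that gave their stroma, in the same fit. This comparison shares the day 0 arrays with the organoid change and the E11.5 array with the change of cultured kidney. Of 35 members tested 10 were lower (28.6%, against 12.8% of 23314 genes) and 1 was higher (2.86%, against 13.6%). Hoxb8 had 1.83, 1.86 and 2.07 in day 0 organoids and 3.05 in E11.5 kidney (-1.13 ± 0.16, 2.19-fold lower, adjusted p = 0.00546), and Hoxc11 had 0.30, 0.47 and 0.64 in day 0 organoids and 1.79 in kidney (-1.32 ± 0.19, 2.5-fold lower, adjusted p = 0.00569). Every day 0 array lay below the kidney array for both. Hoxb1, counted among the 10, was not well above background in any day 0 organoid and at least 12.5-fold lower than in kidney. It was measured on the E11.5 array alone. The spread behind its call is that of organoid values at background, so no p-value is given for it.

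Besides Hoxc11, the other group 11 genes were also called lower in day 0 organoids, Hoxd11 by the probe used. Hoxa11 had 3.29, 3.28 and 3.33 in day 0 organoids and 3.90 in E11.5 kidney (-0.59 ± 0.11, adjusted p = 0.0123). Hoxd11 had 1.70, 2.12 and 1.63 in day 0 organoids and 2.84 in kidney (-1.03 ± 0.20, adjusted p = 0.0157), while its second probe had 2.15, 1.72 and 2.20 in day 0 organoids and 2.01 in kidney, which overlap. Group 10 did not pass, with -0.13 ± 0.12 for Hoxa10, -0.14 ± 0.12 for Hoxc10 and 0.04 ± 0.16 for Hoxd10. The other genes that were lower were Hoxa7 (-0.83 ± 0.12, adjusted p = 0.0069), Hoxd3 (-0.82 ± 0.17, adjusted p = 0.018), Hoxd12 (-0.77 ± 0.19, adjusted p = 0.0301), Hoxb4 (-0.65 ± 0.15, adjusted p = 0.0235) and Hoxb7 (-0.59 ± 0.12, adjusted p = 0.0173). Nephron progenitor markers had a log2 summed signal of 6.91 to 7.04 in day 0 organoids and 7.47 in E11.5 kidney. For early nephron markers it was 1.86 to 2.20 in day 0 organoids and 4.04 in kidney. Other lists differed too. Neuron and neural crest markers summed to 3.81 to 4.05 in day 0 organoids and 2.44 in kidney, those of differentiated stroma to 3.87 to 4.19 in day 0 organoids and 1.05 in kidney, and those of stromal progenitors to 5.93 to 6.20 in day 0 organoids and 5.37 in kidney. All 4 skeletal muscle markers were called higher in day 0 organoids, with a sum of 1.39 to 1.57 in day 0 organoids and -2.79 in kidney, where 2 of them were well above background. Of 5 endothelial markers 4 were lower and 1 higher in day 0 organoids, among them Cdh5 (-4.80 ± 0.58) and Flt1 (-4.94 ± 0.41), and 3 of 4 erythroid markers were lower, with a sum of 4.06 to 5.74 in day 0 organoids and 9.58 in kidney. The part of any of these cells in the Hox values was not tested.

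Hoxd13 was the gene called higher, with 1.72, 1.70 and 1.68 in day 0 organoids and 0.09 in E11.5 kidney (1.61 ± 0.46, 3.05-fold, adjusted p = 0.0477). The call was lost without day 0 replicate 1, 2 or 3 or day 7 replicate 1, with adjusted p of 0.0734 to 0.0955, or with slide as a block (adjusted p = 0.0906), and held in 10 of 16 settings. Hoxa13 had -0.92, -0.64 and -0.74 in day 0 organoids and -2.26 in kidney and missed the threshold (1.5 ± 0.54, adjusted p = 0.0913), but passed without day 7 replicate 3 (adjusted p = 0.00643). Of the 11 calls, that of Hoxb1 at background included, 7 held in every setting, the exceptions being Hoxb4, Hoxb7, Hoxd12 and Hoxd13. Hoxb4 was lost without day 0 replicate 1 (adjusted p = 0.0552), and Hoxd12 without any 1 of the day 0 arrays or day 7 replicate 3 (adjusted p = 0.0509 to 0.0625). Hoxb7 was lost when arrays were scaled to their median (adjusted p = 0.0562).

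Whether culture changed organoids and kidney differently was tested as the difference of the changes, organoid minus kidney, on the same 8 arrays as the comparisons above. Of 35 members 3 were higher (8.57%, against 6.39% of 24321 genes) and 0 lower (against 5.92%), and 7 had an unadjusted p under 0.05 (against 30.8%). Hoxd3 had -1.32, -1.06 and -1.18 in day 7 and -1.13, -0.84 and -1.10 in day 0 organoids, and -1.62 in cultured and -0.21 in fresh kidney. The organoid days overlapped, whereas cultured kidney lay far below fresh kidney, and the difference was 1.25 ± 0.24 (adjusted p = 0.0275). For Hoxb7 the kidney values were 3.82 in cultured and 3.47 in fresh kidney, and its change was larger in organoids by 0.74 ± 0.17 (adjusted p = 0.0433). The third call, Hoxb1, measures no change, since the gene was at background on every organoid array and in cultured kidney, and no size is given for it. With slide as a block Hoxb7 and Hoxd3 were not called, and both were lost without day 0 replicate 1 or any 1 of the day 7 arrays. Their adjusted p was then 0.0508 to 0.0716 for Hoxd3 and 0.0746 to 0.1 for Hoxb7.

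**Figure D4:**
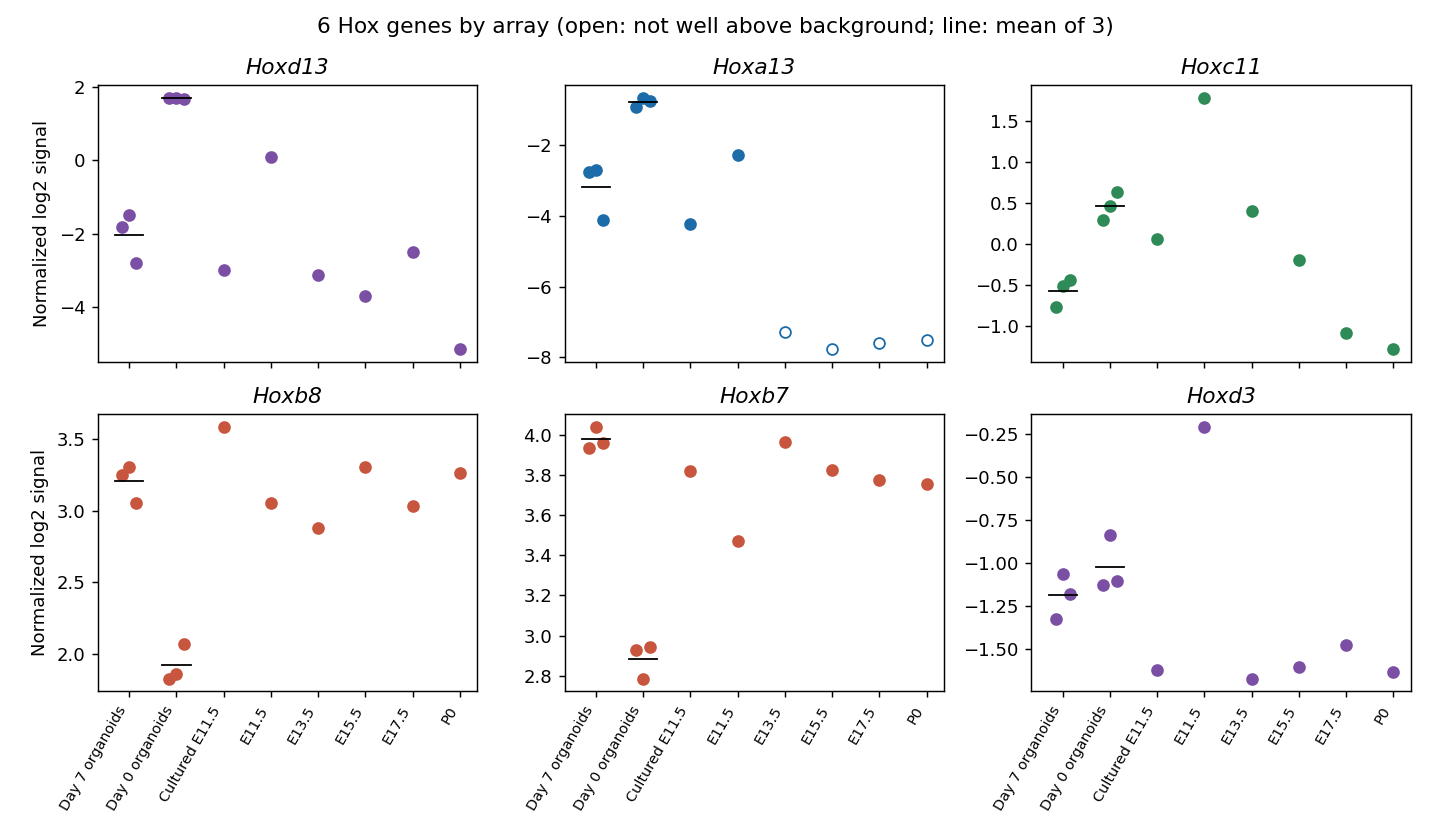
Normalized log2 signal of 6 Hox genes on each array, for day 7 and day 0 organoids (3 arrays each, line at the mean), cultured and fresh E11.5 kidney and the later stages (1 array each), open where not well above background. Hoxd13 and Hoxa13 are lower after culture in both organoid and kidney, Hoxb8 and Hoxb7 are lowest in day 0 organoids, and Hoxd3 stands high in fresh E11.5 kidney alone.

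In fresh kidney the question was which Hox genes follow age. Genes of groups 9 to 13 made up 6 of the 10 that fell from E11.5 to P0. A slope over the 5 stages, in log2 per stage step, was called lower for 10 of 35 members (28.6%, against 9.57% of 25971 genes) and higher for 1 (2.86%, against 8.74%), in all 31.4% of members and 18.3% of genes. At an unadjusted p under 0.05 there were 17 of 35 members, against 9933 of 25971 genes (38.2%). The median slope was -0.24 for members and -0.06 for all genes. Of groups 9 to 13 6 of 13 fell, of groups 4 to 8 2 of 15 fell and 1 rose, and of groups 1 to 3 2 of 7 fell. In cluster C 4 of 7 fell. Signal fell at each of the 4 steps for 11 of 35 members (31.4%, against 8.87% of all genes) and rose at each for 1 (2.86%, against 7.88%).

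Hoxd12 had 3.07, 1.63, 0.42, -0.43 and -1.35 from E11.5 to P0, a loss at every step with a slope of -1.09 ± 0.07 (adjusted p = 0.00946). Hoxc11 had 1.79, 0.40, -0.19, -1.08 and -1.28 over the same stages (-0.76 ± 0.10, adjusted p = 0.016), and Hoxc10 had 2.11, 1.36, 0.75, 0.34 and -0.18 (-0.56 ± 0.05, adjusted p = 0.0114). All 3 were highest at E11.5 and lowest at P0. Hoxa11 had 3.90, 3.54, 3.08, 2.74 and 2.41 (-0.38 ± 0.04, adjusted p = 0.0141), Hoxa10 had 2.5, 2.12, 2.01, 1.93 and 1.35 (-0.25 ± 0.06, adjusted p = 0.0469) and Hoxc9 had 3.04, 2.99, 2.70, 2.24 and 1.97 (-0.29 ± 0.05, adjusted p = 0.03). These too were lower at every step. The remaining members of groups 10 and 11 did not pass, with Hoxd10 at 1.62, 1.28, 1.09, 1.06 and 1.05 (-0.13 ± 0.05, adjusted p = 0.137) and Hoxd11 at 2.84, 1.68, 1.69, 1.62 and 1.54 (-0.27 ± 0.11, adjusted p = 0.144). The second Hoxd11 probe passed (-0.38, adjusted p = 0.0181), and both probes were lower at P0 than at E11.5.

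Some genes with low numbers fell as well. Hoxd1 had -1.53, -1.76, -2.86, -3.63 and -4.20 from E11.5 to P0 (-0.72 ± 0.07, adjusted p = 0.0119), Hoxa2 had -0.07, -1.15, -1.35, -1.66 and -2.06 (-0.45 ± 0.08, adjusted p = 0.0281), and Hoxc4 had 2.88, 1.73, 1.16, 0.82 and 0.86 (-0.50 ± 0.11, adjusted p = 0.0435). Hoxb5 had 1.55, 1.26, 1.05, 0.64 and 0.68 (-0.24 ± 0.05, adjusted p = 0.0418). Hoxd8 was the member that rose, with 1.82, 2.34, 2.82, 3.03 and 3.23 and a gain at every step (0.35 ± 0.06, adjusted p = 0.0231). Hoxb6 and Hoxa7, both higher in day 7 organoids, did not pass over the stages, Hoxb6 with 2.61, 2.82, 2.73, 2.71 and 2.68 (0.00 ± 0.05) and Hoxa7 with 3.02, 2.86, 3.1, 3.01 and 3.04 (0.02 ± 0.05).

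For 3 genes whose slope did not pass, E11.5 stood far above the later stages. Hoxa13 was -2.26 at E11.5 and not well above background at any later stage, at least 7.11-fold lower at E13.5 and at least 8.97-fold lower at P0. Hoxb1 was at least 17.4-fold lower at E13.5 and at least 21.9-fold at P0. Hoxd13 had 0.09, -3.13, -3.71, -2.5 and -5.17 over the 5 stages, with E17.5 above its neighbours, and its slope did not pass (-0.99 ± 0.33, adjusted p = 0.0977). Of the neuron and neural crest markers 2 of 6 had a called negative slope. The log2 summed signal of all 6 was 2.44 at E11.5, 0.66 at E13.5, -0.34 at E15.5, -0.90 at E17.5 and -0.82 at P0. Over these stages 6, 4, 5, 4 and 3 of the markers were well above background. For stromal progenitor markers the sum was 5.37, 5.08, 4.42, 4.09 and 3.89 over the same stages, with a called negative slope for 1 of 5. Called slopes were also negative for 3 of 5 nephron progenitor markers (sum 7.47 at E11.5 and 6.32 at P0) and 3 of 4 erythroid ones. They were positive for 3 of 4 proximal tubule markers (sum 0.29 at E11.5 and 7.85 at P0). The same held for 3 of 4 podocyte markers and 2 of 5 of differentiated stroma. The part of any of these lists in the Hox slopes was not tested. TALE cofactors also declined, 6 of 9 with a called negative slope, against 9.57% of all genes. Over 14 settings 0 to 7 were called. Meis2 (-0.57 ± 0.09, adjusted p = 0.0222) and Pbx2 (-0.56 ± 0.06, adjusted p = 0.0123) had the steepest slopes of this list.

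**Figure D5:**
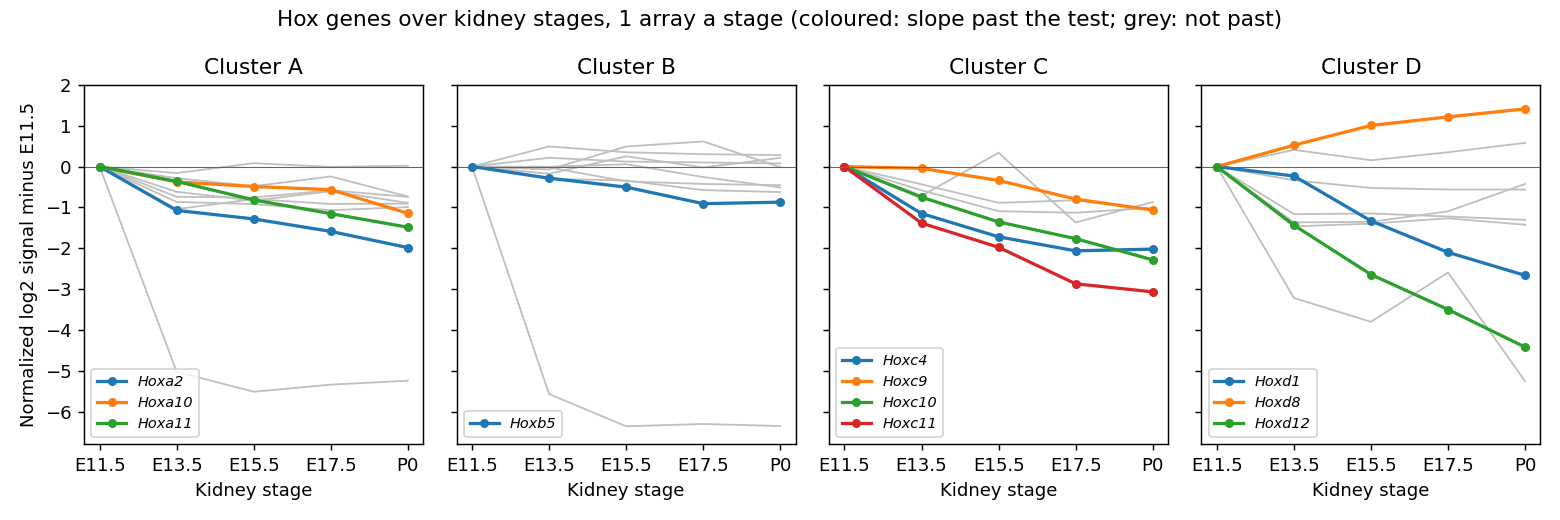
Normalized log2 signal of each Hox gene minus its E11.5 value over the kidney stages E11.5 to P0, 1 array a stage, by cluster, coloured where the slope passed the test and grey where it did not. Hoxd12 ends 4.42 below E11.5, Hoxd8 ends 1.41 above it, and the steep grey lines are Hoxd13 and, at background after E11.5, Hoxa13 and Hoxb1.

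The stage slopes rest on 1 array per stage. Without the E17.5 array or without the P0 array limma called no gene at all, while 7346 and 5606 genes had an unadjusted p under 0.05, among them 13 and 12 members with a negative slope and 1 with a positive slope in each case. Without the E11.5, E13.5 or E15.5 array 7, 6 and 5 members were called lower. None of the 11 calls held under all 14 settings. Between the organoid change and the stage slope, which share no array, r was 0.655 and rho 0.617 over 33 members, with 25 (75.8%) of the same sign, and 0.546 and 0.583 without Hoxd13. Over 19016 genes r was 0.537 and rho 0.374, with 69.4% of the same sign.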

How the data were processed

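RNA of each sample was labelled with Cy3 and hybridised to 1 Agilent array of 62976 spots. Per the file headers, the deposited intensity of a spot was background-subtracted and detrended by Feature Extraction 11.5.1.1, whereas the submitters' processing notes name 10.7.3.1. The deposited flag of a spot well above background was used as given. The authors' deposited log2 values matched the log2 intensity minus the array's 75th percentile up to a constant per array, which settled their scale and showed no centring by gene.

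Outlier spots were left out, spots of a probe were averaged, and the 75th percentile was subtracted. Probes well above background made up 50.6% to 54.2% of each day 0 organoid array and 56.1% to 63.2% of each other array, and precision is limited by how few arrays there are. A gene entered a comparison if 1 of its groups had it well above background throughout, and entered the slope if any stage did. All tests used limma 3.58.1 in R 4.3.3, two-sided, with Benjamini-Hochberg adjustment over all genes entered, and were checked on simulated data. Organoid days were fitted on 6 arrays, comparisons with kidney on 8 arrays in 4 groups, and slopes on 5.

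The members, the lists and the tests were chosen with earlier results of these data known. Values are given for members called between organoid days, over stages or between cultures and for paralogue groups 10 and 11, and the others by range and count. Alternatives covered background correction (normexp, offset 50), scaling, the authors' values, probe choice, filters, moderation, slide, replicate number and single arrays. Same-numbered organoid arrays did not deviate together (correlations of -0.03, -0.16 and -0.03), so they were not treated as pairs. Sequences of promoters are from RefSeq, matched by symbol for 22 of the 38 genes. Some genes and sequences are not reported here. Of 43 member probes 42 carry an accession with the same symbol.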

Additional observations from a re-analysis of the deposited data

Results flagged for a closer look

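For 2 members measured in organoids, the change in culture differed between organoids and E11.5 kidney by a test of the difference itself. Hoxd3 differed by 1.25 (log2, organoid minus kidney), with -0.16 in organoids and -1.41 in kidney. Hoxb7 differed by 0.74, with 1.09 in organoids and 0.35 in kidney. The Hoxd3 call held in 11 of 16 settings and the Hoxb7 call in fewer, and the kidney side rests on 1 array each.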

How the results depend on the processing

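Among members, 1 direction changed in a called result: with the mean of both probes Hoxd11 was -0.0584 between organoid days (adjusted p = 0.547). The counts for day 7 against day 0 organoids stayed within 1.5 times of 9 higher and 14 lower under every planned setting, and leaving out 1 array gave 7 to 10 higher and 11 to 13 lower. With a replicate block, 8 members were higher and 11 lower, and the numbers did not pair the arrays. No paired analysis was possible for the comparisons with kidney because kidney arrays share no replicate number with the organoids. Over all genes the calls in this comparison ran from 4201 to 5814 higher and 7770 to 15028 lower.

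For day 0 organoids against E11.5 kidney, 5 members were higher with normexp correction, 2 with quantile normalization, 2 with genes well above background on every array, 2 with trend and robust moderation, and 0 without a filter or with slide as a block, against 1 reported. Leaving out arrays gave 0 to 2 higher and 8 to 10 lower. For day 7 organoids against cultured kidney, normexp and trend and robust moderation gave 1 higher and 1 lower each, no filter gave 1 lower, and leaving out arrays gave 0 to 2 higher and 0 lower. For the difference of changes, normexp gave 12 higher and 4 lower, trend and robust moderation 6 higher, slide as a block 1 higher, no filter 1 lower, and leaving out arrays 1 to 4 higher and 0 lower. For stage slopes, median scaling gave 0 higher, and leaving out arrays gave 0 to 1 higher and 0 to 7 lower. For cultured against fresh kidney, normexp gave 5 lower. The causes of these shifts were not tested.

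Scaling moved the median of all genes. For day 0 organoids against E11.5 kidney it was 0.03, and 0.19 with normexp, where the higher share of calls was 71.7% against 51.6%. For day 7 organoids against cultured kidney median scaling moved it to 0.16 from -0.03 and the share to 72.8% from 51.2%. For the difference of changes the share was 51.9%, and 27.8% with normexp and 63.1% with median scaling. For stage slopes it was 47.7%, and 35.3% with normexp and 66.5% with median scaling. All-gene counts over the settings ran from 2176 to 9896 higher and 2346 to 3904 lower for day 0 organoids against kidney, 127 to 1962 and 96 to 1874 for day 7 organoids against cultured kidney, 736 to 3250 and 584 to 8422 for the difference of changes, and 0 to 2786 and 0 to 4719 for the slopes.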
